A study of Homo sapiens with 70 samples.

Results

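Hep3B and Huh7, established human hepatoma lines that are both widely used as models of liver cancer, were compared in their vehicle-treated state. The comparison rested on the 17 libraries labelled DMSO, 9 of Hep3B and 8 of Huh7, out of 70 libraries of poly-A RNA, and the members were chosen by these labels alone. All cells were seeded in 6-well plates, received vehicle or drug a day later and were lysed after 24 h. The other arms received 5 µM GW3965, an agonist of the liver X receptors (LXR), 2 µM sorafenib, an inhibitor of RAF and receptor tyrosine kinases, or both drugs. The 18 libraries treated with both drugs, 9 of Hep3B and 9 of Huh7, served as other libraries in which the difference between the lines could be read again. Each line stands for 1 tumour, the labels do not say whether libraries came from separate cultures, and cell line, culture and library preparation cannot be told apart.

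No value of a single library was analysed here. The authors deposited, for each transcript and each drug arm, a mean log2 CPM (reads of a gene scaled to a common library total) over the drug and DMSO libraries and a log2 fold change against DMSO. The DMSO level of each line follows from these as the mean log2 CPM plus 1 minus log2(1 + fold change), and was averaged over the 3 tables of a line, which share the same DMSO libraries and are no replicates. The tables were normalized separately, and levels set across the lines rest on that. A difference is Hep3B minus Huh7 in log2 CPM, so that 2.00 is 4-fold higher in Hep3B. No replicate spread and no test of this difference exist, so a gene was counted when it differed by at least 4-fold and its mean log2 CPM over both lines was at least 1, which is a geometric mean of 2 CPM. This filter removes some genes that are well above 2 CPM in 1 line and near the floor in the other. As a scale, each difference is given with an error implied by the authors' p-values for the drug folds, written ±, which carries no p-value of its own. Depth per library is unknown. CPM is not corrected for transcript length, so values were compared between lines and not between genes.

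Hepatoma cells keep parts of the hepatocyte programme, in which a small set of transcription factors, among them HNF4A, drives genes for secreted plasma proteins. They also resume genes of the fetal liver, such as AFP, GPC3 and the imprinted growth factor gene IGF2. Hep3B is known for lacking functional RB1. These facts are background and were not measured here beyond the RNA levels below.

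The cell type labels were checked against markers. All 11 hepatocyte markers exceeded 2 CPM in both lines, with levels of 29.7 to 9446 CPM in Hep3B and 40.1 to 3399 CPM in Huh7. Endothelial markers summed to 1.24 CPM in Hep3B and 1.99 CPM in Huh7 over 5 genes. Red cell markers summed to 0.425 CPM in Hep3B and 0.383 CPM in Huh7 over 2 genes. Values near 0.2 CPM are the floor of the tables. Of the leukocyte and macrophage markers, PTPRC, CD163, MARCO, CD3E and NKG7 were under 0.5 CPM in both lines, with a summed level of 15.9 CPM in Hep3B and 5.17 CPM in Huh7 over 7 genes. Most of the sum was CD68, a lysosomal protein gene, at 11.7 CPM in Hep3B and 2.71 CPM in Huh7. The stellate cell and fibroblast markers summed to 11.9 CPM in Hep3B and 27.3 CPM in Huh7 over 7 genes. DCN and ACTA2 were at or near the floor in both lines. PDGFRB, however, had 9.10 CPM in Hep3B and 11.4 CPM in Huh7. COL1A1 had 0.675 CPM in Hep3B and 11.1 CPM in Huh7, and RGS5 had 0.745 CPM in Hep3B and 3.03 CPM in Huh7. Of the cholangiocyte and progenitor markers, KRT19 and SOX9 were above 90 CPM in both lines. EPCAM had 234 CPM in Hep3B and 21.7 CPM in Huh7. KRT7 was low, with 1.41 CPM in Hep3B and 1.45 CPM in Huh7, and so was CFTR, with 0.429 CPM in Hep3B and 0.732 CPM in Huh7.

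The DMSO levels of the lines followed each other closely for most genes and were far apart for a minority. Of 20090 representative transcripts, 11366 passed the mean of 2 CPM, and 8830 of these (77.7%) lay within 2-fold, leaving 22.3% beyond it. The median difference was 0.07 and its SD across genes 1.15. Across the 11366 genes the levels correlated with Pearson's r of 0.80 and Spearman's rho of 0.85, a description over genes that share the same libraries. At least 4-fold higher in Hep3B were 399 genes (3.51%), and at least 4-fold lower were 300 (2.64%), which together make 6.15%. At least 32-fold apart were 45 genes higher and 65 lower in Hep3B. The median implied error was 0.14. Of the 2508 genes with a mean of 2 to 8 CPM, 224 were higher and 178 lower, and of the 764 genes at 128 CPM or more, 11 were higher and 8 lower. In 63 of the 699 the lower line was under 0.5 CPM, close to the floor of the tables, where the size of a difference is least certain. The plot of the levels of both lines shows the counted genes on either side of the diagonal.

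**Figure D1:**
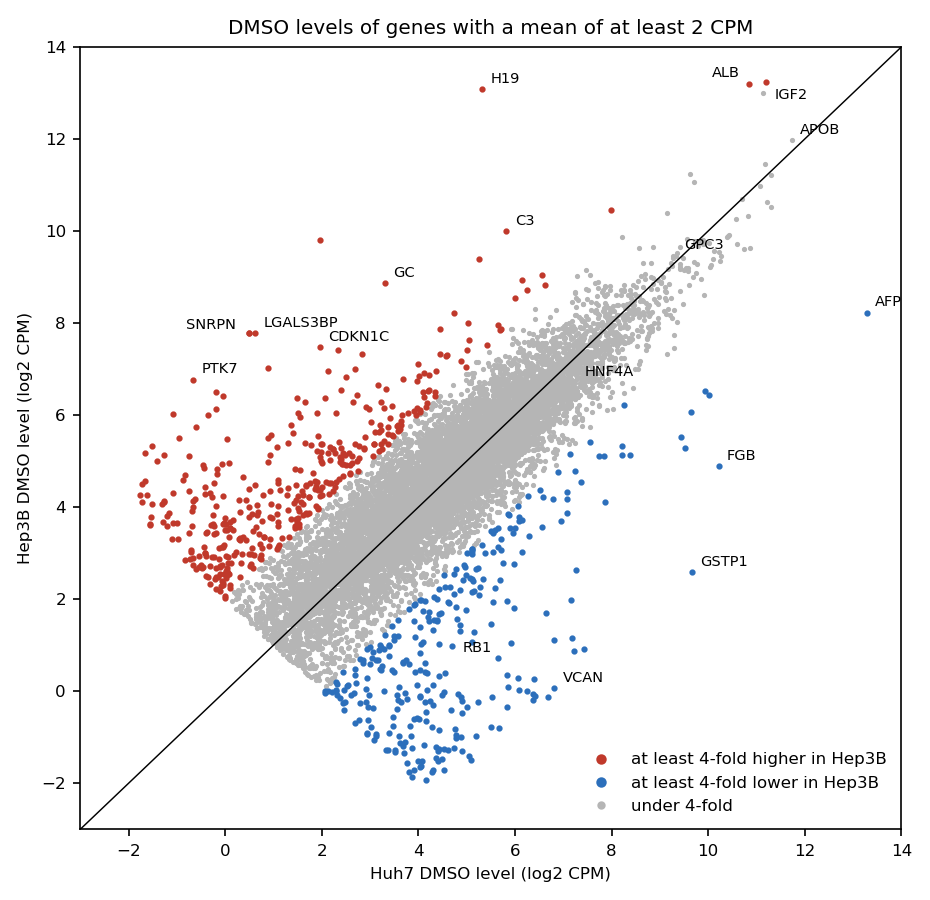
DMSO level of each reported gene with a mean of at least 2 CPM in Hep3B (vertical, log2 CPM) against Huh7 (horizontal, log2 CPM), with the line of equal levels. Red points are the 399 genes at least 4-fold higher in Hep3B and blue points those at least 4-fold lower, with H19 far above and GSTP1, AFP and FGB far below the diagonal.

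The sequences at the start sites of 4 genes on which the results turn are shown here. ALB and AFP are neighbours on chromosome 4 that differ in opposite directions, FGB is a secreted protein gene that was lower in Hep3B, and GSTP1 had the lowest difference of the reported genes. All are RefSeq sequences of the build GRCh38.p14, 5′ to 3′ on the plus strand, from 250 bases before to 50 after the annotated start: ALB at chr4:73404037-73404336, AFP at chr4:73435971-73436270, FGB at chr4:154562730-154563029 and GSTP1 at chr11:67583562-67583861. Capitals mark CpG dinucleotides, of which ALB has 4, AFP 1, FGB none and GSTP1 36.
ALB: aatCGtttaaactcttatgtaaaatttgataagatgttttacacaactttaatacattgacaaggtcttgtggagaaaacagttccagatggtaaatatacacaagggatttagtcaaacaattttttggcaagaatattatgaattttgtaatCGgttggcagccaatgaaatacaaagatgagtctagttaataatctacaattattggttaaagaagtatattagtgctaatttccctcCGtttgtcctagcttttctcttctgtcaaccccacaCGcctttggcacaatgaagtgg
AFP: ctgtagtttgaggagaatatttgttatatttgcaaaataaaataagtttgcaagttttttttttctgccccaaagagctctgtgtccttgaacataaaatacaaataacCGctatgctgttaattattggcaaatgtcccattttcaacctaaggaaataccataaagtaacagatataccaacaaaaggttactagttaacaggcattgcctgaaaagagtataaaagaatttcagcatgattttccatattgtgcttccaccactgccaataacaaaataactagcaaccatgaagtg
FGB: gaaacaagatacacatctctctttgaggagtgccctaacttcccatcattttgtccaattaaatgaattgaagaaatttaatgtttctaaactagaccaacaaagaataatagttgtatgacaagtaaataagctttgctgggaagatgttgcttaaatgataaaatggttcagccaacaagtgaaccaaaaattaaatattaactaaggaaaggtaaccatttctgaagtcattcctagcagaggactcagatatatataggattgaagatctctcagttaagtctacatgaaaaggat
GSTP1: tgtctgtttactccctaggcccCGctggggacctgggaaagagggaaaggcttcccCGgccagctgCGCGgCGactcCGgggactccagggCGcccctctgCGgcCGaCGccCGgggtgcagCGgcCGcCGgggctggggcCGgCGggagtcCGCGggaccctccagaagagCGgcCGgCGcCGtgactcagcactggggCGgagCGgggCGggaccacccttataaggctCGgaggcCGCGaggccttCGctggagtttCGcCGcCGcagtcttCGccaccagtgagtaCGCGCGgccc
The CpG observed over expected ratio was 0.48 in ALB, 0.12 in AFP and 0.88 in GSTP1, while FGB held no CpG. CpG counts describe the letters of the reference and say nothing of methylation in these cells.

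Secreted plasma proteins differed in both directions. Of 61 listed hepatocyte protein genes, 46 passed the mean of 2 CPM, and 7 were at least 4-fold higher and 9 at least 4-fold lower in Hep3B, against 3.51% and 2.64% of all genes tested. The list's median difference was -0.53. ALB, the main plasma carrier protein, had 9446 CPM in Hep3B and 1846 CPM in Huh7 (2.36 ± 0.16). GC, the vitamin D carrier encoded on the same chromosome, had 470 CPM in Hep3B and 9.93 CPM in Huh7 (5.56 ± 0.20). C3, the central complement component, had 1018 CPM in Hep3B and 56.6 CPM in Huh7 (4.17 ± 0.18). The carrier gene AHSG (2.48), the phospholipid-binding APOH (2.98), the hepatokine FGL1 (3.08) and coagulation factor F7 (2.29) completed the 7 higher genes.

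The 9 lower genes included members of the clotting system. PLG, the precursor of the clot-dissolving enzyme plasmin, had 0.847 CPM in Hep3B and 37.4 CPM in Huh7 (-5.46 ± 0.34). Fibrinogen is built from 3 chains, and FGB had 29.7 CPM in Hep3B and 1191 CPM in Huh7 (-5.32 ± 0.19). FGA, the alpha chain, was lower by less, with 91.8 CPM in Hep3B and 976 CPM in Huh7 (-3.41), and FGG, the gamma chain, did not reach 4-fold, with a difference of -1.83. Antithrombin SERPINC1 (-4.23), ITIH1 (-3.08), F12 (-2.78) and haptoglobin HP (-2.64) were also among the lower genes. Other main products were within 2-fold, among them APOB (0.24), TF (-0.31), SERPINA1 (-0.59) and TTR (-0.55).

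Fetal liver genes also split. AFP, the fetal counterpart of albumin, had 300 CPM in Hep3B and 9986 CPM in Huh7 (-5.06 ± 0.21). Its direct neighbour ALB was higher in Hep3B, so this gene pair differed in opposite directions. Of the 24 passing members of the oncofetal list, 3 were at least 4-fold higher in Hep3B (H19, EPCAM and IGF2) and 3 lower (SPINK1, AFP and LIN28B), against 3.51% and 2.64% of all genes tested. IGF2, at 2.03, was just past the threshold. It lay between 1.93 and 2.10 under 7 alternative settings and was under 4-fold in 4 of them. SPINK1, a secreted trypsin inhibitor, had 2.21 CPM in Hep3B and 146 CPM in Huh7 (-6.04 ± 0.21). LIN28B, which blocks maturation of let-7 microRNAs, had 74.9 CPM in Hep3B and 307 CPM in Huh7 (-2.03). GPC3, a heparan sulfate proteoglycan used as a liver cancer marker, stood at 706 CPM in Hep3B and 642 CPM in Huh7 (0.14 ± 0.12).

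**Figure D2:**
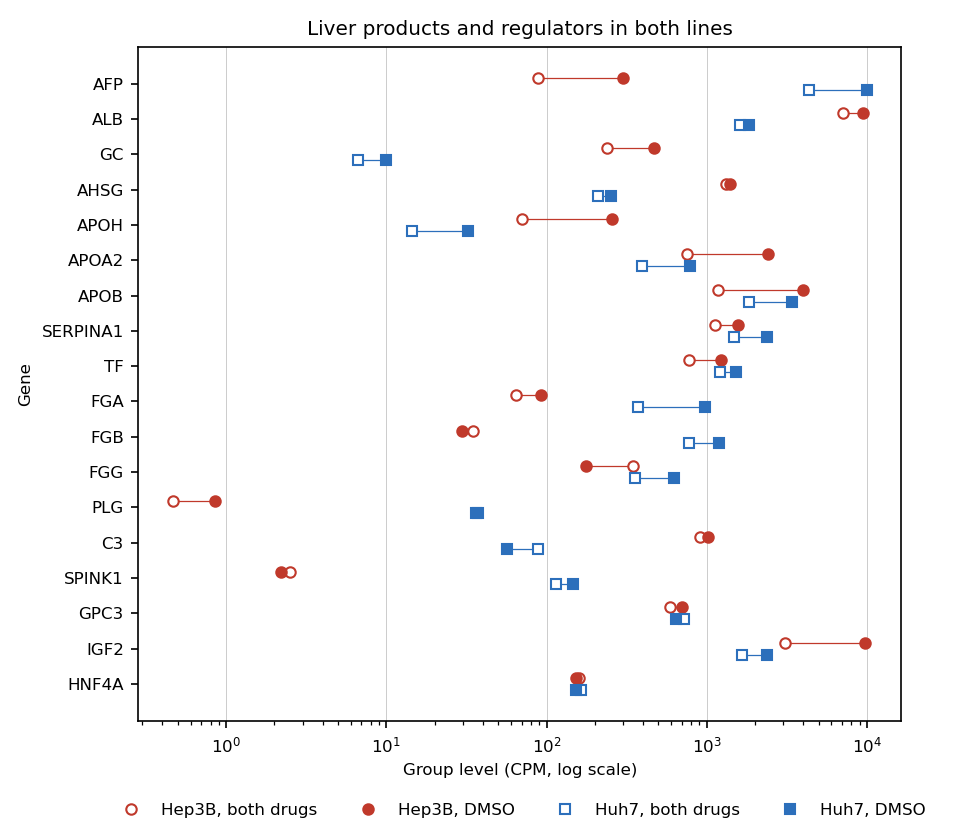
Levels of 18 liver products and regulators in CPM on a log axis, with Hep3B as circles above and Huh7 as squares below for each gene. Filled symbols are DMSO libraries and open symbols both-drug libraries. AFP and FGB lie far lower in Hep3B, GC and C3 far higher, and HNF4A lies at the same level in both lines.

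Regulators of this programme were past 4-fold about as often as all genes. HNF4A had 153 CPM in each line (-0.01 ± 0.12). Of 29 passing hepatocyte transcription factors, 1 was at least 4-fold higher (3.45%) and 1 lower in Hep3B, against 3.51% and 2.64% of all genes tested, and the median difference was -0.15. The higher one was NR0B2, the small heterodimer partner that represses bile acid synthesis, with 30.7 CPM in Hep3B and 5.37 CPM in Huh7 (2.51 ± 0.17). The lower one was CREB3L3, a liver factor released from the endoplasmic reticulum, with 3.28 CPM in Hep3B and 18.5 CPM in Huh7 (-2.50 ± 0.23). ESRRG, an orphan nuclear receptor, missed the filter with 12.2 CPM in Hep3B and 0.254 CPM in Huh7. The bile acid signal FGF19, which the liver normally receives from the intestine, had 6.26 CPM in Hep3B and 27.5 CPM in Huh7 (-2.14 ± 0.16). Its receptor FGFR4 (-0.23) and the co-receptor KLB (-0.59) were within 2-fold.

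Promoters of counted genes held fewer CpG dinucleotides on both sides. A promoter sequence matched 9340 of the tested genes by symbol, 301 of them higher in Hep3B, 234 lower and 8805 under 4-fold. A CpG observed over expected ratio of at least 0.6 was found in 62.1% of the promoters of genes higher in Hep3B, 62.8% of those lower and 86.8% of those under 4-fold. These shares have no test and describe both directions alike.

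Drug and xenobiotic metabolism held the lowest difference of the reported genes. GSTP1, a glutathione transferase, had 5.97 CPM in Hep3B and 807 CPM in Huh7 (-7.08 ± 0.15). Among 20 passing cytochrome P450 and conjugating enzymes, 3 were at least 4-fold higher in Hep3B and 3 lower. That is 15% each way, against 3.51% higher and 2.64% lower among all genes tested. AKR1C1, an aldo-keto reductase whose reads can be shared with the near-identical AKR1C2, had 1.20 CPM in Hep3B and 84.3 CPM in Huh7 (-6.13 ± 0.28). The glucuronosyltransferases UGT2A3 (4.74) and UGT2B7 (2.94) and the sulfotransferase SULT1A1 (2.64) were the 3 higher genes, in families of similar sequence. Most of the 59 listed enzymes did not pass the filter, and CYP3A4, CYP2E1 and CYP2A6 were at the floor in both lines. NQO1, a quinone reductase controlled by NRF2, was lower in Hep3B as well, with 6.75 CPM there and 63.4 CPM in Huh7 (-3.23 ± 0.20). GCLM, which limits glutathione synthesis, had 11.6 CPM in Hep3B and 50.1 CPM in Huh7 (-2.11 ± 0.15).

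Metallothioneins, small proteins that bind zinc and copper, formed a run of neighbouring genes with one direction, the longest among genes passing the filter. The 6 passing genes MT2A, MT1E, MT1M, MT1F, MT1G and MT1X were lower in Hep3B by -6.26 to -5.13. MT2A had 3.92 CPM in Hep3B and 144 CPM in Huh7 (-5.20 ± 0.27), and MT1E had 1.00 CPM in Hep3B and 76.4 CPM in Huh7 (-6.26 ± 0.30). These genes are near-identical copies, and the split of reads among them is uncertain. Their neighbours BBS2 (0.08) and NUP93 (-0.32) on chromosome 16 were within 2-fold, as was the zinc exporter SLC30A1 (-0.10). MTF1, the zinc sensor that switches metallothioneins on, had 5.85 CPM in Hep3B and 10.5 CPM in Huh7 (-0.84). The iron sensor TFR2 was also lower, with 1.26 CPM in Hep3B and 21.6 CPM in Huh7 (-4.11).

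Genes of the G1 checkpoint differed in both directions. RB1, which restrains E2F factors, had 1.65 CPM in Hep3B and 50.4 CPM in Huh7 (-4.93 ± 0.23). CDKN2A, which encodes an inhibitor of the RB1 kinases, was higher, with 145 CPM in Hep3B and 29.5 CPM in Huh7 (2.30 ± 0.13). CDKN1A, an inhibitor of cyclin-dependent kinases, was under the filter in both lines at 1.27 CPM in Hep3B and 1.78 CPM in Huh7. Of 29 passing G1 and E2F genes, CDKN1C and CDKN2A were at least 4-fold higher in Hep3B (6.90%) and RB1 and MYCN lower (6.90%), against 3.51% and 2.64% of all genes tested. MYCN, a MYC family gene, had 4.78 CPM in Hep3B and 38.7 CPM in Huh7 (-3.02 ± 0.23). All 48 replication and mitosis genes were under 4-fold, where 6.15% of all genes tested were past it, and their median was -0.20. MKI67 had 99.0 CPM in Hep3B and 175 CPM in Huh7 (-0.82 ± 0.25).

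The genes beside RB1 showed how far its difference reached along the chromosome, in the order of the RefSeq gene table. ITM2B (-1.30) and LPAR6 (-1.45) were lower by less than 4-fold. LPAR6 lies within RB1, so the reads of this pair may be shared. Further genes of that stretch ran from -1.85 for RCBTB2 to -0.55 for ESD. The window of 25 genes that starts at ATP7B on the same chromosome had the lowest median of all windows, -1.37, with 2 of 25 genes higher in Hep3B.

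Other runs of neighbours differed together in the same way. On chromosome X, 9 genes in a row from BRWD3 to DIAPH2 were at 2.11 to 21.6 CPM in Hep3B and 0.214 to 0.745 CPM in Huh7. Of these, BRWD3 (5.38 ± 0.50), APOOL (4.81 ± 0.28) and CHM (4.86 ± 0.28) passed the filter, CHM being the gene for a Rab escort protein lost in choroideremia. The 9 were taken from genes with at least 2 CPM in at least 1 line, a choice made after their values were seen. The genes on either side, TAF9B (0.49) and TSPAN6 (0.39), were within 2-fold. On chromosome 14, HEATR5A, C14orf126, NUBPL, C14orf128 and ARHGAP5 were lower in Hep3B by -3.77 to -2.38. ARHGAP5, the gene of a GTPase-activating protein, had 66.6 CPM in Hep3B and 796 CPM in Huh7 (-3.58 ± 0.12), and C14orf128 lies antisense to it, so that their reads cannot be told apart here. The next gene EGLN3 differed by 0.77. On chromosome 5 the cytokine receptor genes OSMR (-5.87 ± 0.40) and LIFR (-5.77 ± 0.26) lie side by side. LIFR had 1.22 CPM in Hep3B and 66.6 CPM in Huh7, and OSMR had 0.414 CPM in Hep3B and 24.3 CPM in Huh7. EGFLAM, beside LIFR, was under the filter with 0.240 CPM in Hep3B and 6.46 CPM in Huh7, and the outer neighbours WDR70 (-0.57) and RICTOR (-0.52) were within 2-fold. Copy number was not measured in these libraries, and its part in these runs was not tested.

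**Figure D3:**
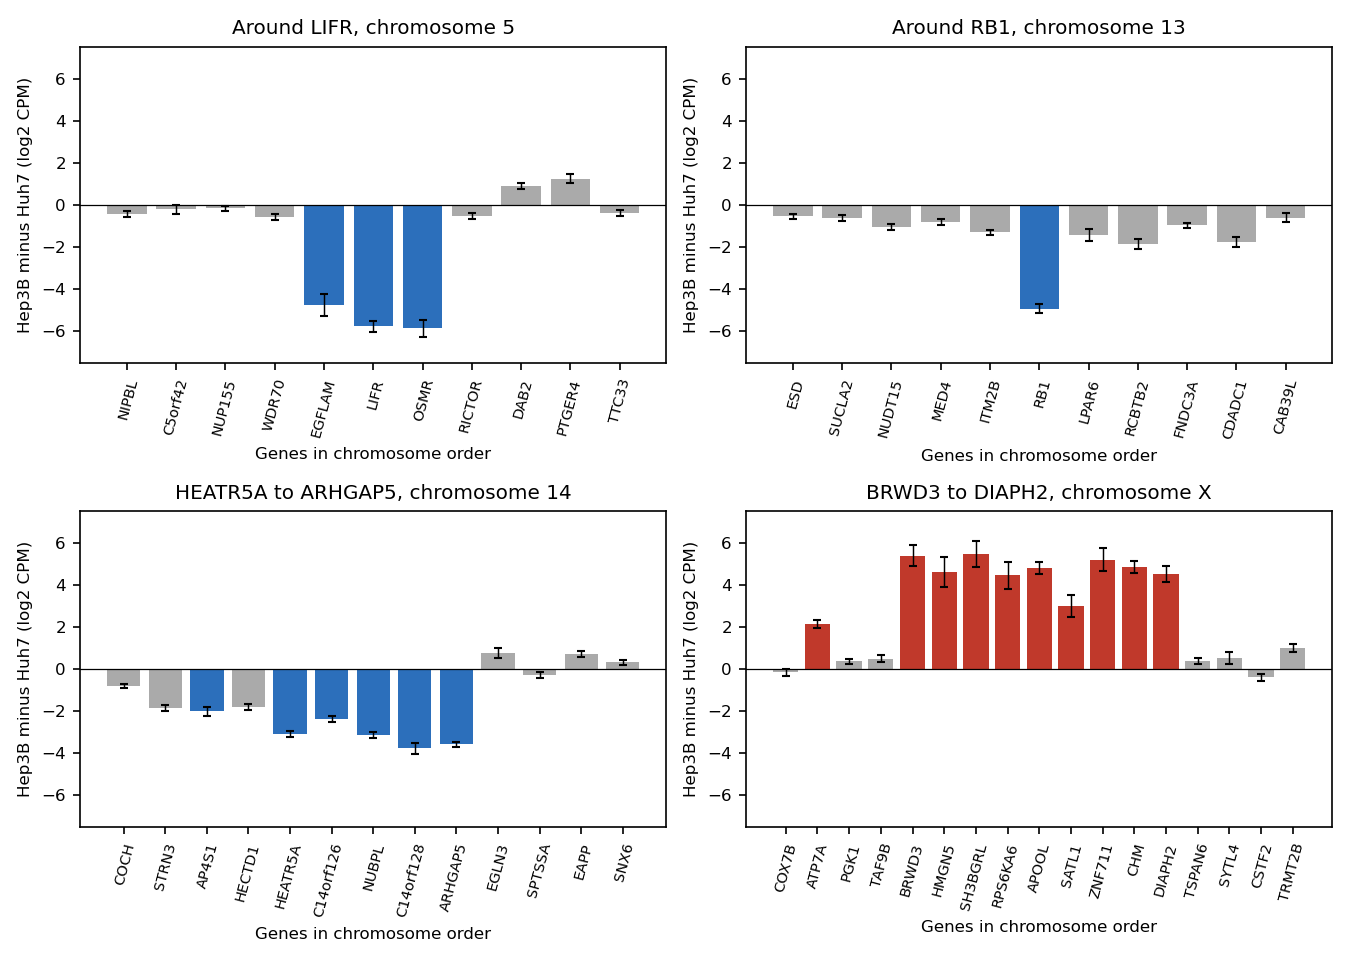
Difference between lines (Hep3B minus Huh7, log2 CPM) of genes in chromosome order around LIFR, RB1, ARHGAP5 and CHM, with bars for the implied error. Red bars are at least 4-fold higher in Hep3B and blue bars at least 4-fold lower. The blocks end at RICTOR (-0.52), EGLN3 (0.77), TAF9B (0.49) and TSPAN6 (0.39). Genes are shown where at least 1 line reached 2 CPM.

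By chromosome, the median difference ran from -0.36 on X (329 genes) and -0.26 on 13 (191 genes) to 0.40 on 6 (580 genes) and 0.55 on 21 (105 genes). Chromosome 19 held 40 genes at least 4-fold higher in Hep3B and 7 lower, out of 815. That is 4.91% higher and 0.859% lower, against 3.51% and 2.64% of all genes tested. Without the filter on low values the median of X was 0.06. The windows of 25 genes with the highest medians ran from ATHL1 to POLR2L on chromosome 11 (1.56, with 24 of 25 genes higher in Hep3B) and from C7orf25 to PURB on chromosome 7 (1.36, also 24 of 25).

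Imprinted genes, which are normally read from the copy of 1 parent only, held several of the highest differences. Of 17 passing members, 6 were at least 4-fold higher in Hep3B (35.3%) and none lower, against 3.51% and 2.64% of all genes tested, with a median of 0.60. H19, a long noncoding RNA, had 8638 CPM in Hep3B and 39.9 CPM in Huh7 (7.76 ± 0.22). MIR675, the highest gene of all at 7.85, is a microRNA that lies inside H19, and its reads in poly-A libraries cannot be told apart from those of H19. IGF2, a fetal growth factor next to H19, had 9666 CPM in Hep3B and 2363 CPM in Huh7 (2.03 ± 0.16), just past the threshold. CDKN1C, an inhibitor of cyclin-dependent kinases in the same cluster, had 178 CPM in Hep3B and 3.90 CPM in Huh7 (5.52 ± 0.20). PHLDA2 was higher too (2.25 ± 0.24), whereas KCNQ1OT1, the antisense RNA of that cluster, was not (-0.50 ± 0.26).

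The SNRPN region on chromosome 15 was higher in Hep3B as well. SNRPN, a splicing protein gene, had 219 CPM in Hep3B and 1.40 CPM in Huh7 (7.29 ± 0.22), and SNURF, which shares its transcript, had the same levels. IPW, a noncoding RNA downstream, had 17.3 CPM in Hep3B and 0.304 CPM in Huh7 (5.83 ± 0.51). UBE3A, the next coding gene, was within 2-fold (0.41 ± 0.12), and the upstream MKRN3 ran the other way at 0.280 CPM in Hep3B and 2.60 CPM in Huh7, under the filter. PEG3 on chromosome 19, a zinc finger gene, had 36.1 CPM in Hep3B and 0.315 CPM in Huh7 (6.84 ± 0.46). Other imprinted genes were close in both lines, among them MEST (77.0 CPM in Hep3B and 77.1 CPM in Huh7), GNAS (0.25), GRB10 (-0.39) and PEG10 (-0.49).

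HOX genes record position along the body axis. Only 4 of 37 HOX genes in the tables passed the filter. HOXC10 had 0.359 CPM in Hep3B and 22.4 CPM in Huh7 (-5.96 ± 0.39), and HOXA7 had 11.3 CPM in Hep3B and 1.12 CPM in Huh7 (3.33 ± 0.29). HOXA3 had 16.3 CPM in Hep3B and 5.66 CPM in Huh7, a difference of less than 4-fold (1.52). Under the filter, HOXC4, HOXC6 and HOXC9 lay at 0.228 to 0.277 CPM in Hep3B and between 3.85 and 5.11 CPM in Huh7, while HOXA5 had 5.00 CPM in Hep3B and 0.494 CPM in Huh7. Of the cancer-testis genes 2 passed, PRAME (-3.89 ± 0.28) and MAGEB2 (-5.56 ± 0.53), both lower in Hep3B. SMARCA2, an ATPase of the SWI/SNF remodelling complex, was the 1 gene past 4-fold among 26 epigenetic regulators, with 24.2 CPM in Hep3B and 0.541 CPM in Huh7 (5.48 ± 0.31). Among all genes tested, 3.51% were at least 4-fold higher and 2.64% lower.

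Class I antigen presentation genes were higher in Hep3B. Of 20 passing genes of the interferon and antigen list, 7 were at least 4-fold higher in Hep3B (35%) and none lower, against 3.51% and 2.64% of all genes tested, with a median of 0.69. The classical class I genes HLA-B and HLA-C present peptides to cytotoxic T cells. HLA-B had 26.3 CPM in Hep3B and 0.886 CPM in Huh7 (4.89 ± 0.28). HLA-C differed by 3.39 ± 0.18. These genes resemble each other and vary between people, and how reads were assigned to them is uncertain. B2M, the invariant chain of the class I complex, differed by less, with 190 CPM in Hep3B and 111 CPM in Huh7 (0.78). The antiviral genes IFITM3 (3.24), IFITM2 (2.99) and IFIH1 (3.25) and the invariant chain gene CD74 (2.25) were also higher. STAT2 (0.44) and ISG15 (-0.06), which interferon signalling uses or induces, were within 2-fold. MX2, an antiviral GTPase that the list did not hold, went the other way, with 0.374 CPM in Hep3B and 33.1 CPM in Huh7 (-6.47 ± 0.39).

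The pathways that the drugs of the other arms act on were compared at baseline. Among 28 passing receptor tyrosine kinases and RAF pathway genes, 2 were at least 4-fold higher in Hep3B, FGFR2 (41.0 CPM in Hep3B and 3.44 CPM in Huh7) and PDGFRA (55.2 CPM in Hep3B and 9.17 CPM in Huh7), and none lower. That is 7.14% higher, against 3.51% higher and 2.64% lower among all genes tested, and the list's median was -0.05. BRAF (-0.60), EGFR (0.33) and MET (0.62) were within 2-fold. Of 15 passing genes that report ERK signalling, none was 4-fold higher and 4 were 4-fold lower in Hep3B (26.7%). Of all genes tested, 3.51% were higher and 2.64% lower. The list's median was -0.62, with 2 genes at least 2-fold higher and 7 at least 2-fold lower. The 4 genes included the ERK phosphatases DUSP5 (6.24 CPM in Hep3B and 153 CPM in Huh7, -4.61 ± 0.17) and DUSP4 (-2.85). The feedback inhibitor SPRY4 (-2.05) and the ETS factor ETV4 (-2.04) were the others, just past the threshold. With 1 CPM added to each level they were under 4-fold, at -1.93 for SPRY4 and -1.98 for ETV4. DUSP6, the ERK phosphatase most used as a readout, had 55.6 CPM in Hep3B and 85.3 CPM in Huh7 (-0.62 ± 0.23).

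The LXR receptors NR1H3 (0.91 ± 0.18) and NR1H2 (-0.30 ± 0.13) were within 2-fold. Of 19 passing genes of the LXR list, MLXIPL, the carbohydrate response factor ChREBP, was 4-fold higher (18.7 CPM in Hep3B and 3.31 CPM in Huh7). PLTP, a phospholipid transfer protein gene, was 4-fold lower (6.42 CPM in Hep3B and 37.3 CPM in Huh7). That is 5.26% each way, against 3.51% higher and 2.64% lower among all genes tested. The cholesterol exporter gene ABCG1 was low in both lines, with 0.623 CPM in Hep3B and 2.93 CPM in Huh7, and ABCA1 had 56.0 CPM in Hep3B and 105 CPM in Huh7 (-0.90 ± 0.17). All 28 cholesterol synthesis and uptake genes passed the filter and none reached 4-fold, but the median was -0.55, and 8 were at least 2-fold lower and 3 at least 2-fold higher in Hep3B, against 9.06% and 13.3% of all genes tested. HMGCS1, an early enzyme of the pathway, had 212 CPM in Hep3B and 627 CPM in Huh7 (-1.56 ± 0.16), and INSIG1, which holds back SREBP factors, had 35.4 CPM in Hep3B and 115 CPM in Huh7 (-1.70 ± 0.15). TM7SF2, a sterol reductase, was the highest of the list with 121 CPM in Hep3B and 34.3 CPM in Huh7 (1.82 ± 0.14).

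Fatty acid genes leaned the same way in synthesis and the other way at the entry to oxidation. Of 31 passing genes of fatty acid synthesis and storage, 4 were at least 4-fold lower in Hep3B, LIPG (-5.06), FADS2 (-3.58), DGAT2 (-2.96) and LPIN1 (-2.67). FADS2, the delta-6 desaturase, had 87.2 CPM in Hep3B and 1041 CPM in Huh7. PLIN4, a lipid droplet coat protein, was the 1 higher gene, with 20.5 CPM in Hep3B and 1.90 CPM in Huh7. That is 3.23% higher and 12.9% lower, against 3.51% and 2.64% of all genes tested. CPT1A, which carries fatty acids into mitochondria, had 31.8 CPM in Hep3B and 3.96 CPM in Huh7 (3.01 ± 0.23). In glucose metabolism, HKDC1 (2.84 ± 0.38), a hexokinase-like gene, and PFKFB2 (2.54 ± 0.15) were higher and PFKM (-2.30 ± 0.15), a phosphofructokinase, lower. The hexokinase HK2 had 127 CPM in Hep3B and 65.4 CPM in Huh7 (0.96 ± 0.12). Of 28 passing urea cycle and amino acid catabolism genes, 2 were at least 4-fold higher in Hep3B (7.14%) and 4 lower (14.3%). Among all genes tested these shares were 3.51% and 2.64%, and the list's median was 0.15. HAL (2.80 ± 0.41) was among the higher genes. The ureagenesis genes NAGS (-2.42 ± 0.31) and ARG1 (-2.05 ± 0.41) were among the lower ones. NAGS differed by -1.70 with 1 CPM added to each level and by -0.05 with both drugs. ARG1 had 1.94 CPM in Hep3B and 8.03 CPM in Huh7. The difference of ARG1 was just past the threshold. It ran from -2.13 to -1.62 under the same 7 settings and was under 4-fold in 2 of them.

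Surface and matrix genes separated the lines further. Of 39 passing matrix and integrin genes, 10 were at least 4-fold lower and 4 higher in Hep3B, with a median of 0.26. Of all genes tested, 2.64% were at least 4-fold lower and 3.51% higher. The lower genes included 7 collagen chains, among them COL2A1, the cartilage collagen, at 34.9 CPM in Hep3B and 332 CPM in Huh7 (-3.25), and COL1A2 at 3.48 CPM in Hep3B and 63.1 CPM in Huh7 (-4.18 ± 0.22). VCAN, a large matrix proteoglycan, had 1.04 CPM in Hep3B and 113 CPM in Huh7 (-6.75 ± 0.30). Of 32 epithelial and mesenchymal genes, 4 were at least 4-fold higher and 8 lower in Hep3B, against 3.51% and 2.64% of all genes tested. The lower genes were CLDN6, the cadherin CDH17 (-5.93), SPARC (-5.58), a matrix-associated glycoprotein, TAGLN (-3.88), SNAI1 (-3.15), S100A10 (-2.92), CLDN2 (-2.88) and S100A6 (-2.07), and the higher ones EPCAM, ESRP1, KRT23 and LGALS1 (5.00). ESRP1, an epithelial splicing factor, had 69.7 CPM in Hep3B and 0.880 CPM in Huh7 (6.31 ± 0.28), and KRT23, a keratin, had 64.0 CPM in Hep3B and 0.780 CPM in Huh7 (6.36 ± 0.30). The tight junction gene CLDN6 ran the other way, with 0.954 CPM in Hep3B and 82.9 CPM in Huh7 (-6.44 ± 0.32). CDH1, the epithelial cadherin, was higher by less than 4-fold (1.37 ± 0.17), and so was the mesenchymal filament gene VIM (0.90 ± 0.23).

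Growth factors, their binding proteins and Wnt receptors held many counted genes. Of 24 passing ligands and binding proteins, 7 were at least 4-fold higher and 5 lower, against 3.51% and 2.64% of all genes tested. IGFBP3, which carries insulin-like growth factors in plasma, had 127 CPM in Hep3B and 6.44 CPM in Huh7 (4.31 ± 0.23), and IGFBP2 had 1.27 CPM in Hep3B and 56.7 CPM in Huh7 (-5.48 ± 0.28). PDGFA (4.21 ± 0.21), the EGFR ligand EREG (4.29 ± 0.28) and INHBE (3.38 ± 0.20) were higher, and BMP2 (-3.26) and FST (-3.01), an activin inhibitor, lower. Of 26 Wnt pathway genes, 5 were at least 4-fold higher in Hep3B (19.2%) and 1 lower (3.85%), against the same shares of all genes. The receptor genes FZD2 (3.90 ± 0.23) and FZD8 (3.58 ± 0.29) were higher and FZD7 (-2.47 ± 0.16) lower. DKK1, a secreted Wnt inhibitor, had 489 CPM in Hep3B and 71.2 CPM in Huh7 (2.78 ± 0.30), while AXIN1 (0.33) and AXIN2 (-0.21) were within 2-fold. The chemokine gene CXCL12 had 42.2 CPM in Hep3B and 2.45 CPM in Huh7 (4.10 ± 0.19).

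**Figure D4:**
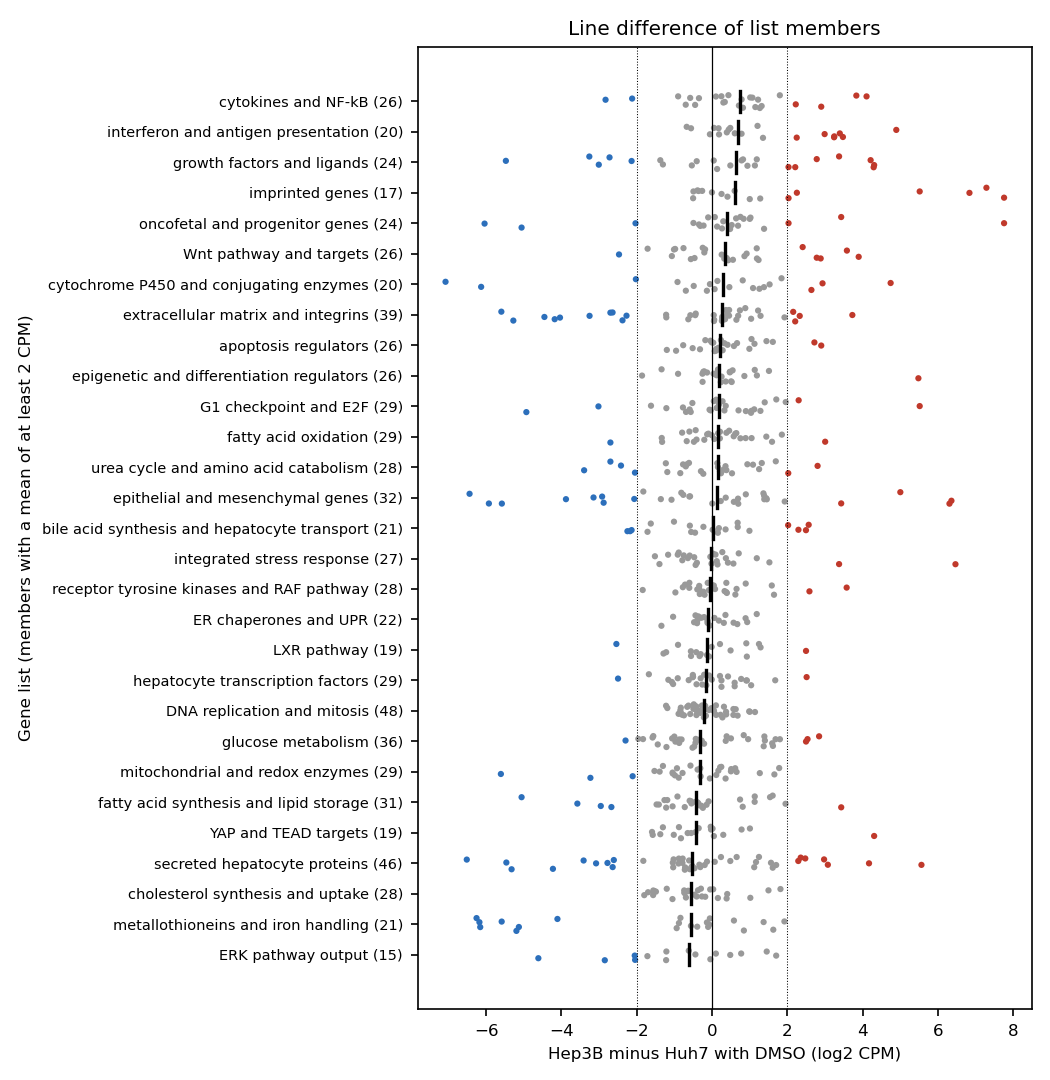
Difference between lines (Hep3B minus Huh7, log2 CPM) of each passing member of the gene lists shown, ordered by list median (black tick). Each list shown has at least 10 such members, and not every list of that size is shown. Dotted lines mark 4-fold, past which lay 3.51% of all genes tested on the right and 2.64% on the left. Interferon and antigen presentation (7 of 20) and imprinted genes (6 of 17) have members past 4-fold on the right and none on the left, and metallothioneins and iron handling (7 of 21) on the left and none on the right. Vertical scatter within a list has no meaning.

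The remaining genes at the ends of the comparison belonged to no single theme. PTK7, a pseudokinase receptor of Wnt signalling, had 109 CPM in Hep3B and 0.631 CPM in Huh7 (7.43 ± 0.30). LGALS3BP, a secreted galectin ligand, had 221 CPM in Hep3B and 1.54 CPM in Huh7 (7.16 ± 0.23). The calcium channel gene CACNA1H (7.10), the cytoskeletal linker MSN (6.83), S100A14 (6.70), PAQR8 (6.48) and NUPR1 (6.47) completed the highest 12. At the low end, C19orf63, now named EMC10 and a part of a membrane insertion complex, had 0.910 CPM in Hep3B and 103 CPM in Huh7 (-6.83 ± 0.27). FAM71E1, the gene directly beside it, was just under the filter and at the floor in Hep3B, with 0.248 CPM in Hep3B and 15.3 CPM in Huh7 (-5.94 ± 0.53). JOSD2 on the other side was within 2-fold (-0.08). GATM, which makes the creatine precursor, had 0.873 CPM in Hep3B and 82.4 CPM in Huh7 (-6.56 ± 0.33). TSPAN18 (-6.59), ARSE (-6.52) and the sulfatase SULF2 (-6.47) lay close to these.

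The both-drug libraries, which share no library with the DMSO groups but pass through the same deposited tables, were used to read the difference again. There, 364 of the 11366 genes (3.2%) were at least 4-fold higher and 340 (2.99%) at least 4-fold lower in Hep3B, together 6.19%. Of the 399 genes higher with DMSO, 276 (69.2%) were past 4-fold the same way, 369 past 2-fold and 5 of the opposite sign. Of the 300 lower genes, 241 (80.3%) were past 4-fold, 288 past 2-fold and 1 of the opposite sign. The libraries labelled GW3965 kept 304 and 255 of these genes past 4-fold, and those labelled sorafenib 353 and 238. In the authors' deposited tables for Huh7, the LXR target ABCG1 had a log2 fold change of 0.75 with the arm labelled GW3965 and 3.82 with the arm labelled sorafenib, which goes against these labels, so no direction was drawn from them. RB1 (-4.34), AFP (-5.62), GSTP1 (-7.37), H19 (6.89), SNRPN (6.94) and ALB (2.13) kept their sides with both drugs.

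Of the genes past 4-fold with DMSO, 123 of the 399 higher and 59 of the 300 lower ones were not past it with both drugs, and 6 of these had the opposite sign. The metallothioneins MT2A (-1.31 with both drugs) and MT1X (-1.74) were under 4-fold there, while MT1F (-6.10) and MT1G (-4.38) remained past it. IGF2 differed by 0.88 with both drugs and CXCL12 by 1.42, each on the same side as with DMSO. The 5 higher genes of opposite sign were THBS1 (2.16 with DMSO and -0.50 with both drugs), UBD (2.72 and -0.28), SHPK (3.14 and -0.23), JUNB (2.10 and -0.31) and CXCL5 (2.22 and -0.04). THBS1, an adhesive matrix glycoprotein, had 232 CPM in Hep3B and 51.9 CPM in Huh7 with DMSO, and 119 CPM in Hep3B and 169 CPM in Huh7 with both drugs. TMEM151A was the 1 lower gene of opposite sign, at -2.43 with DMSO and 1.05 with both drugs.

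**Figure D5:**
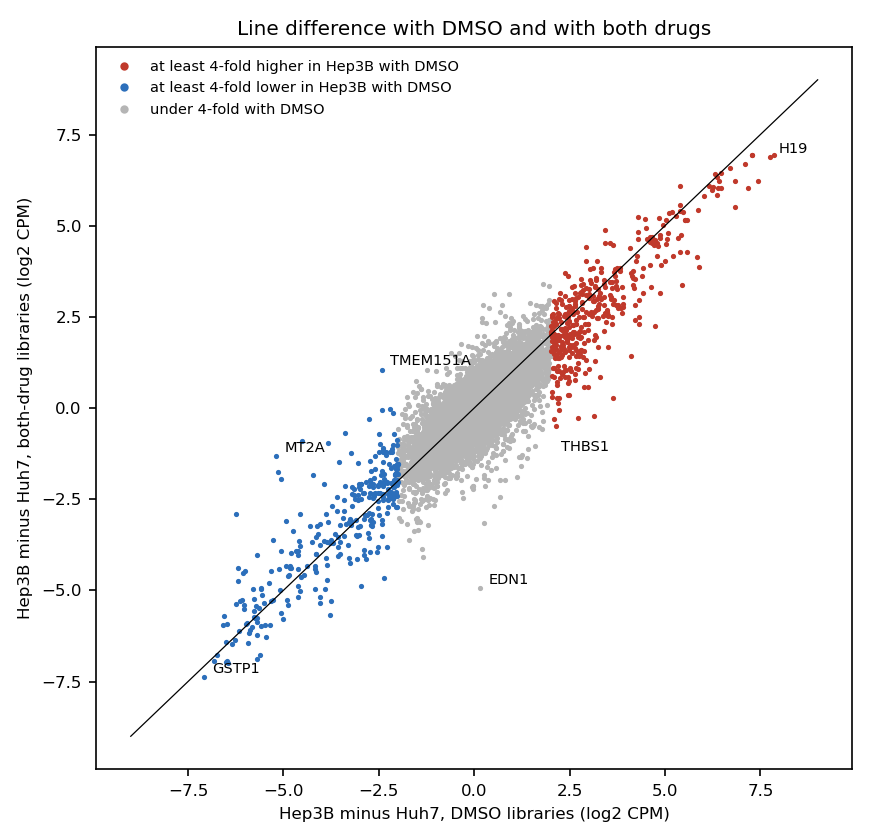
Difference between lines (Hep3B minus Huh7, log2 CPM) in the both-drug libraries against the DMSO libraries, for the reported genes with a mean of at least 2 CPM and with the line of equal differences. Of the 399 red genes, 276 are past 4-fold on the same side in the both-drug libraries, and most blue genes are too. MT2A, MT1X and THBS1 are among those that moved toward or past 0.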

How the data were processed

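Poly-A RNA libraries of Hep3B and Huh7 were sequenced after NEB Next Ultra preparation, per the labels' protocols. Per the submitters' processing notes, edgeR was used on a human genome named both hg19 and GRCh37. For the aligner, the counter and the normalization, nothing is given in the sources used here. The authors deposited 6 tables, 1 per drug arm and line against DMSO, and per the file headers each of the 32321 transcripts carries an average log2 CPM, its log2 fold, the p-value of that fold and an adjusted one. Only the transcript that the authors chose to represent each of 20090 symbols was used. Reading the fold as drug over DMSO, the DMSO levels from 2 tables of a line differed across genes with an SD of 0.0085 to 0.0142 (log2), against 0.337 to 0.708 read in reverse.

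From these tables the DMSO level per line and the difference between lines were computed in Python 3.11.15 with numpy 2.4.6, pandas 2.3.3 and scipy 1.17.1. The computation was tested on simulated data. The design assumed no values of single libraries, so no test was run, and edgeR was not rerun. The implied error of a drug fold was found by dividing the authors' absolute log2 fold by the normal quantile that matches its p-value. At p above 0.5 the median among genes of similar level (20 bins) was used instead, which was also the lower limit, and combined over both lines. It covers a drug fold and so exceeds the error of a DMSO mean alone. The lowest deposited mean log2 CPM was between -2.45 and -2.18 in the 6 tables, so levels near 0.2 CPM are a floor and understate differences.

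Genes were tested where the mean log2 CPM over both lines was at least 1. Named genes were the 12 highest and 12 lowest differences, up to 5 members of each of 33 lists with the largest differences, and a fixed set of single genes. The rule also names genes that are not reported here. Other genes given as examples of a list, neighbours of a run and genes of opposite sign were chosen after their values were seen. Members and lists (1148 of 1170 listed genes found) were chosen with earlier results of these data known. Gene names, chromosomes, neighbours and promoters came from RefSeq tables of GRCh38.p14, which matched 19976 symbols. The deposited tables hold no coordinates. Alternatives changed the table, filter, pseudocount, centring, scaling, transcript summary and fold threshold.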

Additional observations from a re-analysis of the deposited data

How the results depend on the processing

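The counts of genes higher and lower in Hep3B (399 and 300) moved with the filter and the threshold. They were 758 and 730 with no filter on low values, 232 and 157 at a mean of at least 5 CPM, 1506 and 1030 at 2-fold, and 181 and 164 at 8-fold. They were 648 and 561 with at least 2 CPM in at least 1 line, an alternative chosen after seeing the data. Genes past the threshold the same way with DMSO and with both drugs numbered 1740 at 2-fold. Taking the DMSO level from 1 table per line, adding 1 CPM before the logarithm, centring, rescaling or summing transcripts left both counts within 1.5 times. Under all of these 7 settings except the added 1 CPM, at least 114 of the 115 named differences past 4-fold stayed past it. With 1 CPM added, 103 of the 195 moved by more than their implied error, and 104 of 115 past 4-fold stayed past it. Without the filter, 14 of 23 chromosome medians moved, to -0.02 on 20 and 0.08 on 13.

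No paired analysis was possible because the tables hold group values and no values of single libraries. Leaving out each replicate was not run for the same reason. Depth per library is unknown, so precision at low levels could not be derived from counts.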

Other observations

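Some counted genes of metabolism and signalling fall outside the groups described above. UCP2, a mitochondrial carrier, had 0.306 CPM in Hep3B and 14.9 CPM in Huh7 (-5.61 ± 0.51). BMF, a BH3-only gene that promotes apoptosis, had 159 CPM in Hep3B and 24.1 CPM in Huh7 (2.72 ± 0.15), and BIRC3, an inhibitor of apoptosis, had 11.2 CPM in Hep3B and 1.50 CPM in Huh7 (2.90 ± 0.38). The transporter genes ABCC3 (2.50 ± 0.22) and ABCC1 (2.02) were higher in Hep3B, while ABCB1 had 35.3 CPM in Hep3B and 51.8 CPM in Huh7 (-0.55 ± 0.12). The bile acid enzymes CYP7B1 (2.57 ± 0.30) and HSD3B7 (2.30 ± 0.16) were higher in Hep3B and ACOX2 (-2.25 ± 0.22) was lower. All 22 chaperone and unfolded protein response genes were under 4-fold, where 6.15% of all genes tested were past it, and their median was -0.12.

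EDN1, the precursor gene of the vasoconstrictor endothelin 1, was singled out after its values were seen. With DMSO it had 2.52 CPM in Hep3B and 2.27 CPM in Huh7 (0.15 ± 0.54). With both drugs it had 0.583 CPM in Hep3B and 17.8 CPM in Huh7, a difference of -4.93. No test of this change was made.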
